A study of Mus musculus with 8 samples.

Results

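The zinc finger genes described here are 8 of 22180 measured genes: Rsl1, Zfp493, Zfp729a, Zfp458, Zfp712, Zfp429, Zfp874a and Zfp935. They were picked because their values differed between mice with stromal hedgehog (Hh) activation and control mice, and because they lie near Ptch1 on chromosome 13. Their difference in that comparison is therefore a description, with no test. Each is represented by its brightest transcript cluster, and each of the 8 had 1 cluster with a single gene symbol.

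The mice with Hh activation (Ptch1ΔCol1, n = 4) were homozygous for a floxed Ptch1 allele (Ptch1fl/fl) and carried Col1a2CreER, a tamoxifen-activated Cre under a transgenic Col1a2 promoter that is active in stromal cells. Replicates 1 and 2 of them also carried the Cre-dependent reporter R26-LSL-tdTomato, and replicates 3 and 4 were labelled without it. The controls lacked Cre. Control replicates 1 and 2 were Ptch1fl/+, with 1 floxed and 1 wild-type allele, and control replicates 3 and 4 were labelled R26-tdTomato, with no floxed allele named. All 8 mice received 5 mg of tamoxifen and were sampled after 7 days. Each group held 3 females and 1 male, with the male as replicate 3 of the Hh activation mice and as replicate 2 of the controls. The study states a C57BL/6 background for all its mice, and no age is stated for these 8. The LoxP sites flank exon 2 of Ptch1 and deletion is driven in Col1a2-expressing stromal cells. Where the array probes lie relative to that exon is not known here, so the Ptch1 level does not check the deletion. RNA came from a piece of whole colon measured on 1-colour arrays (log2 values after robust multi-array average, RMA), so fewer cells of a type and less RNA per cell cannot be told apart. Array medians lay between 4.69 and 4.80. Marker genes of colon epithelium were present in every array: the mean over 6 of them was between 11.46 and 11.61 in Hh activation mice and between 11.41 and 11.44 in controls.

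C2H2 zinc finger proteins bind DNA through tandem finger modules. Many of those in mouse gene clusters also carry a KRAB domain, which recruits the scaffold protein TRIM28 and, through it, histone methyltransferase and heterochromatin proteins, so that the bound locus is silenced. The genes arose by repeated local duplication, and neighbours are often close in sequence. One such cluster on mouse chromosome 13 holds Rsl1 and Rsl2 (regulator of sex-limitation), named for their repression in liver of genes whose expression is typical of males. RefSeq gives Rsl2 as a synonym of Zfp429, and lists Zfp458, Zfp493, Zfp729a and Zfp874a as candidates of the same Rsl series (rslcan names).

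The promoters of these genes are shown first, because the members share parts of them and the shared letters can be set beside the values. RefSeq promoters of 300 bases (250 before and 50 after the gene start, assembly GRCm38.p6, chromosome 13) were matched for 7 of the 8 genes. Zfp493 was not matched. The promoters of Rsl1 (chr13:67172932-67173231, plus strand) and Zfp429 (chr13:67399718-67400017, minus strand) were the closest pair, with 269 identical bases of 300 (89.7%). The other 20 pairs had between 40% and 60% identity. Both sequences are printed 5′ to 3′, and the capitals mark a run of 17 letters that recurs in the other promoters.
Rsl1: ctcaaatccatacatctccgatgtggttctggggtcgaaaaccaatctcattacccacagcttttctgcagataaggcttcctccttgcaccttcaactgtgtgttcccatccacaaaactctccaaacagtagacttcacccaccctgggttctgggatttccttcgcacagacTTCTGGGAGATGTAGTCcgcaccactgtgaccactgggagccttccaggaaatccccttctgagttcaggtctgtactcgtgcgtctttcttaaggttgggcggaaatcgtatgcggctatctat
Zfp429: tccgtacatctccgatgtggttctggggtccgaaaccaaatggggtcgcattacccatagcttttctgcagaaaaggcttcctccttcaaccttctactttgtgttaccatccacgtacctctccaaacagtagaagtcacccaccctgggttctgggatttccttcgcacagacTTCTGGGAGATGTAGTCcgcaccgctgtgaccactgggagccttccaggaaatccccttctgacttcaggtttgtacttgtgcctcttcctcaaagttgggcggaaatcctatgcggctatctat
Zfp712, Zfp458 and Zfp874a share the run TTGTGGGAAATGTAGTC letter for letter. With N at the positions where Rsl1, Zfp429 or Zfp729a differ from it, the run becomes TTNTGGGANNTGTAGTC, and it lies on the plus strand of the promoter in all 6 of these genes. The windows below hold it in capitals with 20 bases on each side, from Zfp712 (chr13:67061194-67061250), Zfp458 (chr13:67269140-67269196), Zfp874a (chr13:67451625-67451681) and Zfp729a (chr13:67637783-67637839), all transcribed from the minus strand.
Zfp712: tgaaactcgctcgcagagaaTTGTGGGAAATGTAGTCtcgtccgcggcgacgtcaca
Zfp458: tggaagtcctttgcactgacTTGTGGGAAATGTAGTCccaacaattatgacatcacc
Zfp874a: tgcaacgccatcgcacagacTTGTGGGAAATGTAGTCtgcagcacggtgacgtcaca
Zfp729a: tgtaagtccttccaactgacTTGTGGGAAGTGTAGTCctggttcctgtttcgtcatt
The run started between 37 and 182 bases before the gene start. Searched on both strands, it was in 101 of 32851 mouse promoters of the same length (0.307%). By gene it was in 21 of 38 zinc finger symbols on chromosome 13 (55.3%), 10 of 322 on other chromosomes (3.11%) and 67 of 26665 other symbols (0.251%). The letters were taken from the members themselves, so their presence in 6 of 7 members is fixed by that choice. These 6 are counted in the 21 of 38 and in the 101 promoters, so those shares are set in part by it. The promoter of Zfp935, the member with a higher mean in Hh activation mice, did not hold the run.

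The Gli motif GACCACCCA, to which the transcription factors of the Hh pathway bind, was searched on both strands too. It was in 0 of 7 member promoters and in 83 of 32851 promoters (0.253%). The GC box GGGCGG was in the promoters of Rsl1 and Zfp429, and in 35.7% of all promoters. The element TGACGTCA was in that of Zfp874a, and in 1.79% of all. CCAAT was in those of Rsl1 and Zfp935, and in 37.4% of all.

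In Hh activation mice, 7 of the 8 genes were below every control mouse and Zfp935 was above the control mean with overlapping values. Over all genes, 643 of 22180 (2.9%) lay below every control and 548 (2.47%) above every control. Since the genes were picked on this contrast, the 7 of 8 are not evidence beyond that choice. The median difference over the 8 genes was -0.65 on the log2 scale, against -0.01 over all genes. A difference of -0.5 or lower was seen for 190 genes (0.857%), the 7 lower members among them. The rank in size differed widely between members: Zfp493 had the 3rd lowest and Rsl1 the 5th lowest difference of all genes, and Zfp429 the 176th lowest.

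**Figure D1:**
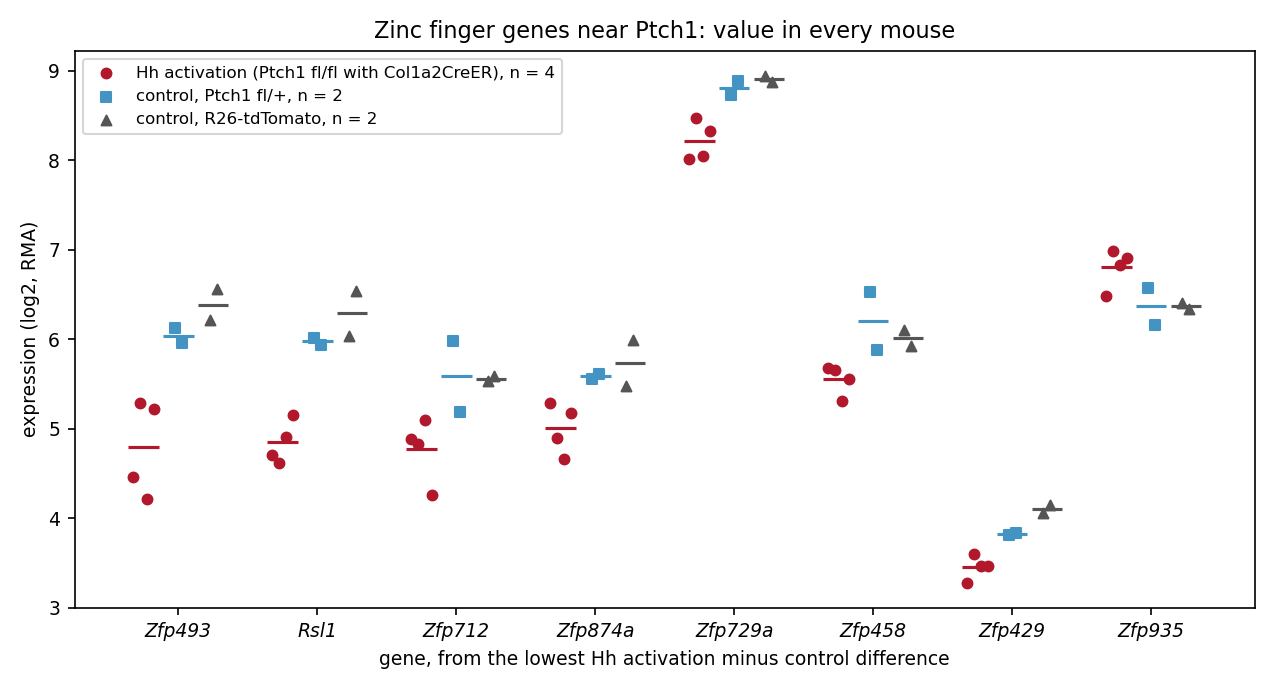
Expression (log2 after RMA, vertical axis) of each zinc finger gene in every mouse, with Hh activation mice as circles (n = 4), Ptch1fl/+ controls as squares (n = 2) and R26-tdTomato controls as triangles (n = 2), and the mean of each as a line. Values of 7 genes lie below all controls in the Hh activation mice, and those of Zfp935 overlap; heights of different genes are not comparable.

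Rsl1 (transcript cluster 17288302), a KRAB zinc finger repressor of male-typical liver genes, was at 4.70, 4.62, 4.91 and 5.15 in Hh activation replicates 1 to 4, against 6.01 and 5.94 in Ptch1fl/+ controls and 6.04 and 6.54 in R26-tdTomato controls. The groups were 0.79 apart at their nearest values, the widest such gap among the members. The mean was 4.85 ± 0.24 in Hh activation mice and 6.13 ± 0.27 in controls (SD, n = 4 each), a difference of -1.29 (standard error, SE, 0.16), which is 2.44-fold lower. R26-tdTomato replicate 4 stood above the other 3 controls.

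Zfp493 (17288338), a zinc finger gene of the Rsl candidate series, was at 4.46, 5.29, 4.21 and 5.22 in Hh activation mice, against 6.12 and 5.96 in Ptch1fl/+ controls and 6.21 and 6.56 in R26-tdTomato controls. Replicates 1 and 3 of the Hh activation mice were low and replicates 2 and 4 higher, and none reached a control. The means were 4.80 ± 0.54 in Hh activation mice and 6.21 ± 0.25 in controls, a difference of -1.42 (SE 0.24), or 2.67-fold lower. Its SD in Hh activation mice was the largest among the members.

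Zfp429 (17293961), the gene that RefSeq also names Rsl2, was at 3.28, 3.60, 3.47 and 3.46 in Hh activation mice, against 3.81 and 3.83 in Ptch1fl/+ controls and 4.06 and 4.15 in R26-tdTomato controls. The 3 genotypes did not overlap, with the Ptch1fl/+ controls between the others. The difference was -0.51 (SE 0.11), with means of 3.45 ± 0.13 in Hh activation mice and 3.96 ± 0.17 in controls. Its mean was below percentile 40 of all gene means (4.67), a filter for dim genes that the other 7 members passed. Its promoter is the one close to that of Rsl1 printed above. The probe sequences were not used here, so a share of signal from near-identical copies was not tested for any member.

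Zfp712 (17293897), a C2H2 zinc finger gene, was at 4.88, 4.83, 5.10 and 4.26 in Hh activation mice, against 5.98 and 5.19 in Ptch1fl/+ controls and 5.53 and 5.59 in R26-tdTomato controls. Hh activation replicate 3 came within 0.09 of the lowest control, Ptch1fl/+ replicate 2, the narrowest gap among the 7 lower genes. The difference was -0.81 (SE 0.20), or 1.75-fold lower.

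Zfp874a (17293974), also called Rslcan15, was at 5.29, 4.90, 4.66 and 5.17 in Hh activation mice, against 5.56 and 5.61 in Ptch1fl/+ controls and 5.48 and 5.99 in R26-tdTomato controls. Another gene of the same series, Zfp458 (17293922), was at 5.68, 5.66, 5.31 and 5.55 in Hh activation mice, against 6.53 and 5.88 in Ptch1fl/+ controls and 6.10 and 5.92 in R26-tdTomato controls. In both genes the groups were apart by about 0.2 (0.19 for Zfp874a and 0.20 for Zfp458) and the male was the lowest Hh activation mouse. The difference was -0.66 (SE 0.16) for Zfp874a and -0.56 (SE 0.15) for Zfp458.

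Zfp729a (17294016), also called Rslcan3, was at 8.01, 8.47, 8.05 and 8.33 in Hh activation mice, against 8.73 and 8.88 in Ptch1fl/+ controls and 8.94 and 8.87 in R26-tdTomato controls. As for Zfp493, replicates 2 and 4 of the Hh activation mice were the higher ones. The means were 8.22 ± 0.22 in Hh activation mice and 8.86 ± 0.09 in controls, a difference of -0.64 (SE 0.12).

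Zfp935 (17293495), a zinc finger gene on the other side of Ptch1, was at 6.48, 6.99, 6.83 and 6.91 in Hh activation mice, against 6.57 and 6.16 in Ptch1fl/+ controls and 6.40 and 6.34 in R26-tdTomato controls. Hh activation replicate 1 lay below Ptch1fl/+ replicate 1, and the other 3 Hh activation mice were above every control. The difference was 0.44 (SE 0.13), with means of 6.80 ± 0.22 in Hh activation mice and 6.37 ± 0.17 in controls.

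Within groups the members did not vary as 1 unit. The correlation of their deviations from the group mean over the 8 arrays ranged from -0.53 (Zfp712 with Zfp729a) to 0.82 (Zfp493 with Zfp729a) over 28 pairs, with a median of 0.15 and 17 pairs above 0. All pairs share the same 8 arrays and their normalization. The mean over the 7 lower genes was 5.19, 5.34, 5.10 and 5.31 in Hh activation replicates 1 to 4, against 6.11 and 5.90 in Ptch1fl/+ controls and 6.05 and 6.23 in R26-tdTomato controls. In the Hh activation group the lowest value fell in replicate 3 for 3 of these 7 genes, in replicate 1 for 2, and in replicates 2 and 4 for 1 each. In the controls Ptch1fl/+ replicate 2 held the lowest value for 4 of the 7, and R26-tdTomato replicate 4 the highest for 4.

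The 2 kinds of control were then compared, because this contrast was not used to pick the genes and sets mice with 1 floxed Ptch1 allele and no Cre against mice labelled with none. No zinc finger gene passed the test. Of the 8, 6 were lower and 2 higher in Ptch1fl/+ controls than in R26-tdTomato controls, and the differences lay between -0.35 (Zfp493) and 0.20 (Zfp458). The adjusted p was 0.998 for all 8 (limma, Benjamini-Hochberg adjustment over 22180 genes). Limma called 0 genes (0%) in this contrast, while 330 genes were higher and 271 lower at unadjusted p values under 0.05, with none of the 8 among them. An exact permutation test of 2 mice against 2 cannot give a p below 0.333. Values of the 2 kinds of control did not overlap for 3 members, Rsl1, Zfp429 and Zfp493, which is 3 of 8 beside 33.2% of all genes.

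For Rsl1 the difference was -0.32 (95% confidence interval -0.80 to 0.17), and for Zfp429 it was -0.29 (-0.58 to 0.01, unadjusted p = 0.058 from limma). For Zfp493 it was -0.35 (-1.13 to 0.44). The Ptch1fl/+ mean was nearer to the R26-tdTomato mean than to the Hh activation mean for 8 of 8 members. On the log2 scale it lay 43.7% of the way from R26-tdTomato to Hh activation for Zfp429, 21.8% for Rsl1, 21.7% for Zfp493, 20.5% for Zfp874a and 14.5% for Zfp729a. For Zfp712, Zfp458 and Zfp935 it lay on the far side of the R26-tdTomato mean, at -3.15%, -42.4% and -1.16% of that distance. The Ptch1fl/+ mice were among the controls used to pick the genes. A gene with Ptch1fl/+ values near Hh activation was unlikely to be picked. The 8 of 8 and these percentages are therefore set in part by that choice. The interval reached the midpoint between R26-tdTomato controls and Hh activation mice for 8 of 8 members and included 0 for each of them. It reached the full Hh activation difference for Zfp935 alone. With 2 mice of each kind, no difference and a shift to the midpoint cannot be told apart for any member in this model without sex. The Ptch1fl/+ pair held 1 male and the R26-tdTomato pair none. Zfp458 and Zfp493 moved most with sex in the model, to 0.42 (SE 0.15) and -0.08 (SE 0.32). Single mice also set these values: without R26-tdTomato replicate 4 the difference was -0.07 for Rsl1 and -0.17 for Zfp493, and without R26-tdTomato replicate 3 it was -0.57 and -0.52.

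**Figure D2:**
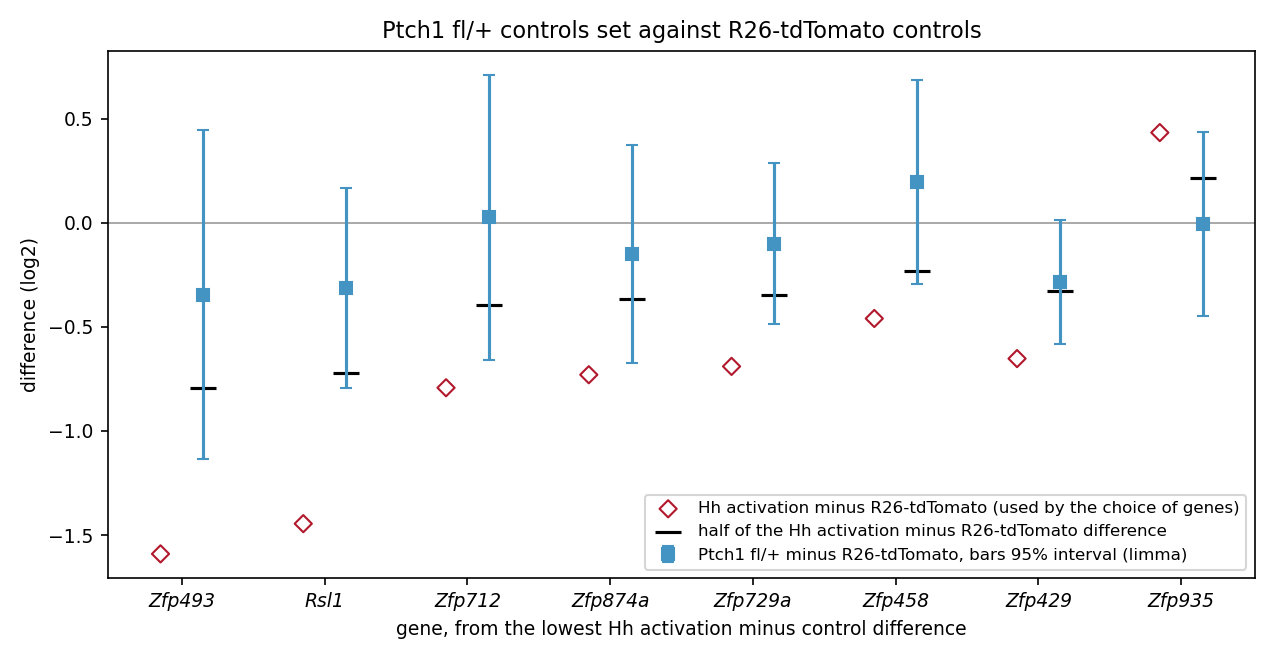
Difference on the log2 scale (vertical axis) for each gene: diamonds show Hh activation minus R26-tdTomato controls, and squares show Ptch1fl/+ minus R26-tdTomato controls with 95% intervals from limma. Black dashes mark the midpoint of the diamond and 0; all 8 intervals include both the dash and 0.

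The size of the differences was also taken against each kind of control alone. The 7 lower members were below every control, so they were necessarily below each kind alone. The amounts differed between the 2 kinds. The difference of Rsl1 was -1.13 against Ptch1fl/+ controls and -1.45 against R26-tdTomato controls. For Zfp493 these were -1.25 and -1.59, and for Zfp458 -0.66 and -0.46. Zfp429 moved by over 1.5 times, with -0.37 and -0.65. Zfp935 had 0.44 and 0.43, and lay above both R26-tdTomato controls while it overlapped the Ptch1fl/+ controls. Both comparisons share the 4 Hh activation mice.

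The reporter allele was compared inside the Hh activation group, where all mice had 2 floxed alleles. Differences of the members between mice with and without the reporter lay between -0.37 (Rsl1, SE 0.18) and 0.24 (Zfp458, SE 0.21), 5 of them above 0. Adjusted p values ran from 0.675 to 0.978 (limma). Limma called 0 of 22180 genes (0%), while 755 genes were higher and 943 lower at unadjusted p values under 0.05, with no member among them. Without Hh activation replicate 4 it called 56 genes. The reporter pair was all female and the other pair held the male.

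Sex was of interest because Rsl1 is named for sex-limited expression in liver. Between females and males, fitted beside the 3 genotypes, limma called 9 genes (0.0406%) and no member. At unadjusted p values under 0.05, 964 genes were higher and 961 lower in females, with 1 member among them. Rsl1 had a difference of -0.02 (SE 0.20, adjusted p = 0.986) and Zfp429 one of -0.02 (SE 0.12, adjusted p = 0.978). Zfp458 was higher in females by 0.45 (SE 0.12), with an unadjusted p of 0.0066 and an adjusted p of 0.427, and the male was the lowest mouse for this gene in each group. Zfp493 had a difference of 0.53 (SE 0.26, adjusted p = 0.616). The term rests on 2 males, 1 in each group.

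Along chromosome 13 the lower members lie together. In the order of measured genes, Zfp712 is 32 places beyond Ptch1, Rsl1 36, Zfp458 38, Zfp429 42, Zfp874a 44, Zfp729a 50 and Zfp493 53, while Zfp935 is 12 places before it. Ptch1 itself, the Hh receptor and a target of the pathway, was at 9.58, 9.21, 9.19 and 9.63 in Hh activation mice, against 8.48 and 8.77 in Ptch1fl/+ controls and 8.61 and 8.49 in R26-tdTomato controls, a difference of 0.82 (SE 0.13). It was above every control, and the 7 zinc finger members beyond it were below every control. Each Hh activation mouse carried Cre and was homozygous for the floxed Ptch1 allele, while no control had Cre or was labelled homozygous. Hh activation, Cre and the homozygous floxed allele with the chromosome 13 DNA around it therefore varied together between the groups. The separate part of each in these differences was not tested. Distances from Ptch1 are given as places in RefSeq gene order and not in bases. The array's own genome build was not given in the sources used here.

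**Figure D3:**
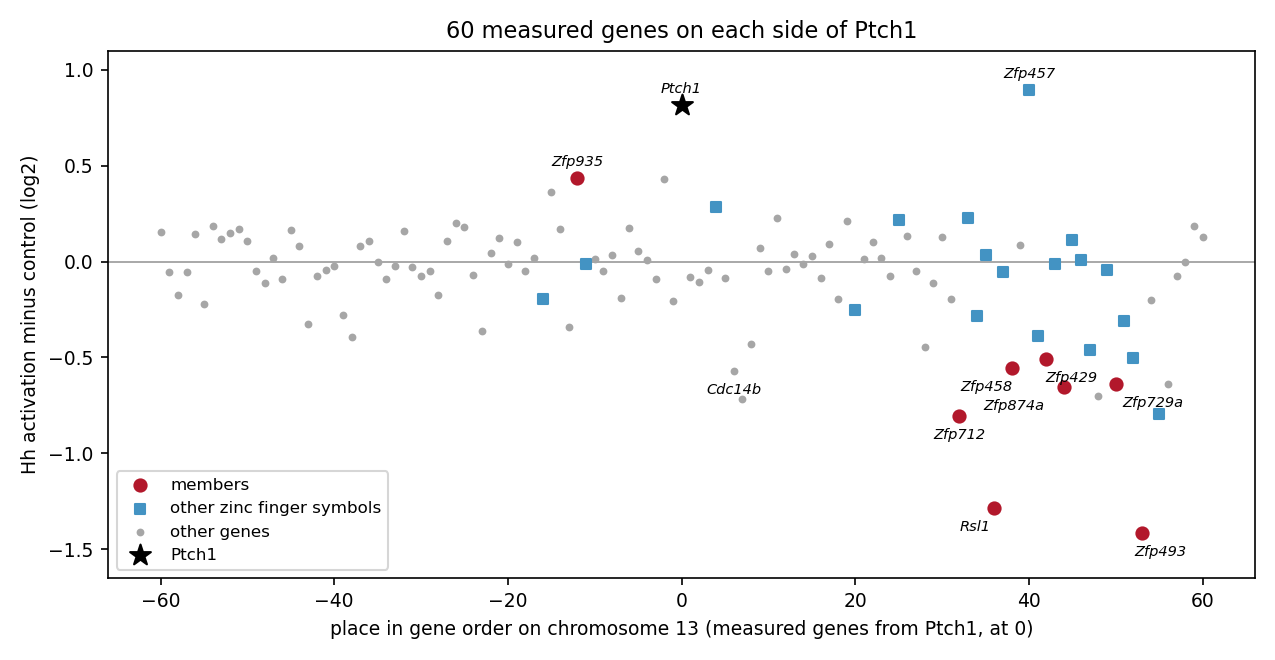
Hh activation minus control difference (log2, vertical axis) of the 60 measured genes on each side of Ptch1 on chromosome 13, by place in gene order (horizontal axis, Ptch1 at 0 as a star). The 7 lower members (circles) fall between places 32 and 53, among other zinc finger symbols (squares) that lie on both sides of 0.

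The neighbours of the members did not share one direction. Of 15 measured genes that lie among the 7 lower members, 9 had a lower and 6 a higher mean in Hh activation mice, with a median difference of -0.04. Only Zfp738 of these 15 lay below every control, with a difference of -0.31 (SE 0.11). The lowest difference of the 15 was that of 9430065F17Rik, 48 places beyond Ptch1, at -0.70 (SE 0.23). Zfp85os, at 52, had -0.50 (SE 0.21). These 2 genes were dim, with means below 4.67 in each group. Zfp748, at 47, had -0.46 (SE 0.15) and Zfp456, at 41, had -0.39 (SE 0.13). All of these genes overlapped the controls. Zfp729b, next to Zfp729a and close to it in name, was at 6.50, 6.59, 6.89 and 6.47 in Hh activation mice, against 6.58 and 6.63 in Ptch1fl/+ and 6.74 and 6.67 in R26-tdTomato controls. Its values overlapped, with a difference of -0.04 (SE 0.10) where Zfp729a had -0.64.

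Zfp457, between Zfp458 and Zfp429, ran the other way and varied widely. It was at 5.03, 5.66, 5.37 and 4.08 in Hh activation mice, against 5.00 and 3.83 in Ptch1fl/+ controls and 4.04 and 3.69 in R26-tdTomato controls, a difference of 0.90 (SE 0.36). Replicate 4 of the Hh activation mice lay among the controls and Ptch1fl/+ replicate 1 near the other Hh activation mice.

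Within 50 measured genes of Ptch1 there were 16 further zinc finger symbols, of which 9 were lower and 7 higher in Hh activation mice, with a median difference of -0.01. Of these, 0 lay below and 1 above every control: Zfp640, at 2.95 in Hh activation mice and 2.73 in controls on average, with Hh activation replicate 4 at 3.34 and the other 3 between 2.80 and 2.83. The highest control for Zfp640 was at 2.79. Widening to 60 genes added Zfp738 and Zfp273 to those below every control. Zfp273, 55 places beyond Ptch1, was at 3.31, 3.79, 3.69 and 3.76 in Hh activation mice, against 4.00 and 4.67 in Ptch1fl/+ and 4.22 and 4.85 in R26-tdTomato controls, a difference of -0.80 (SE 0.19). The means of Zfp640 and Zfp273 were below the filter for dim genes (4.67) in both groups. This wider window was chosen after the values had been seen. The members were taken from this same stretch for their change, so the share of other genes that changed there is what the choice left.

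Zinc finger symbols on other chromosomes were more often lower than higher in Hh activation mice. Of 361, 256 had a lower and 105 a higher mean, with a median difference of -0.08, beside 11646 lower and 10470 higher of all genes. Of these 361, 18 (4.99%) lay below every control and 6 (1.66%) above, beside 2.9% and 2.47% of all genes. The 14 on chromosome 13 beyond the 60-gene window had a median of -0.11 and none was apart from the controls. Of 93 genes within 60 places of Ptch1 without a zinc finger symbol, 5 (5.38%) lay below and 1 (1.08%) above every control. The shares were 3.01% and 3.15% of 730 such genes elsewhere on chromosome 13. The split is by symbol alone, so zinc finger genes with other names were not separated from these. The 5 were Fancc (-0.21), the phosphatase gene Cdc14b (-0.57, SE 0.12), 1810034E14Rik (-0.72, SE 0.14), Prxl2c (-0.43, SE 0.10) and Gm10767 (-0.45, SE 0.18). 1810034E14Rik was dim, with means of 4.05 in Hh activation mice and 4.76 in controls. Fancc is next to Ptch1, and Cdc14b, 1810034E14Rik and Prxl2c are 6, 7 and 8 places beyond it, on the same side as the lower members.

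Genes that were not lower held the promoter run of 17 letters too. Among the other zinc finger symbols within 60 places of Ptch1, 16 had a promoter in the table and 10 of them held the run (62.5%). These 10 were split into 5 lower and 5 higher in Hh activation mice, with a median difference of -0.02 and a range from -0.50 to 0.90. The 6 without it had a median of -0.11. Over all 81 measured genes outside the members that held the run, 3 (3.7%) lay below and 3 above every control, and the median was -0.04.

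**Figure D4:**
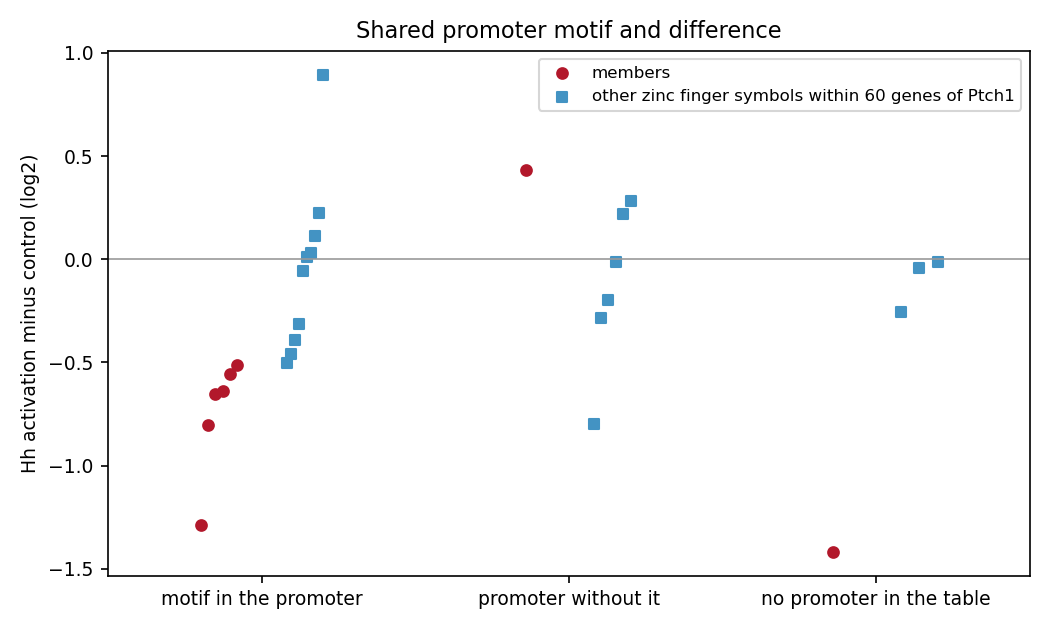
Hh activation minus control difference (log2, vertical axis) of the members (circles) and of other zinc finger symbols within 60 genes of Ptch1 (squares), by whether the RefSeq promoter holds the 17-letter run (horizontal axis). Among genes with the run the 6 members lie between -1.29 and -0.51, and 10 other genes between -0.50 and 0.90.

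The partners through which KRAB zinc finger proteins act had small differences in both directions. Of 14 corepressor genes, 10 were lower and 4 higher in Hh activation mice, with a median difference of -0.13 and a range from -0.19 to 0.33. Limma called none of the 14 in a contrast where it called 6 genes in all (0.0271%). At an unadjusted p under 0.05 there were 2 higher and 1 lower. The share of all genes at that p is not given here, so these counts are a description. Of the 14, 1 (7.14%) lay below and 2 (14.3%) above every control, beside 2.9% and 2.47% of all genes. Trim28, the scaffold, was at 9.63, 9.49, 9.69 and 9.61 in Hh activation mice, against 9.73 and 9.65 in Ptch1fl/+ and 9.78 and 9.84 in R26-tdTomato controls. Its values overlapped, with a difference of -0.15 (SE 0.08, adjusted p = 0.609). Cbx1, a heterochromatin protein 1 gene, was below every control at -0.19 (SE 0.08, adjusted p = 0.516), and its paralog Cbx3 above every control at 0.19 (SE 0.08, adjusted p = 0.530). Uhrf1, which binds hemimethylated DNA during replication, was above every control at 0.33 (SE 0.11, adjusted p = 0.452).

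Genes that Rsl1 and Rsl2 repress in mouse liver were also examined, with the limit that the tissue here is colon. Of 8 listed, 6 were measured, and 3 were lower and 3 higher in Hh activation mice, all with overlap and none called by limma (0 at an unadjusted p under 0.05). The means of C4a, Mup3, Mup20 and Mup21 were below 4.67, the filter for dim genes given above, where a change is hard to detect. C4a, the sex-limited protein gene, had a mean of 2.83 ± 0.18 in Hh activation mice and 2.69 ± 0.31 in controls (SD, n = 4 each). The difference was 0.15 (SE 0.15, adjusted p = 0.799). Mup20, a major urinary protein gene, differed by -0.19 (SE 0.13, adjusted p = 0.668) and Cyp2d9, a steroid hydroxylase gene, by 0.04 (SE 0.16, adjusted p = 0.957).

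The genes with the most similar pattern over the 8 arrays were looked up for each member by Pearson correlation. For Rsl1 it was Cep162 (r = 0.97), for Zfp493 Sidt1 (0.99), for Zfp729a Ccdc191 (0.98), for Zfp458 Macrod1 (0.98), for Zfp712 Mmp3 (0.99), for Zfp429 Xlr3c (0.95), for Zfp874a Ppip5k1 (0.99) and for Zfp935 Acsm4 (0.99). None of these 8 lies on chromosome 13. Their Hh activation minus control differences were each smaller in size than that of the member they match, between -0.43 (Mmp3) and 0.34 (Acsm4). With the sign of each member turned so that its own difference counts as positive, the highest mean correlation over the members belonged to Gli1 (0.86), a transcription factor and target of the Hh pathway. It was followed by Sh3kbp1 (0.85), Gm8894 (0.84), Cldn1 (0.84) and Spaca6 (0.84), all higher in Hh activation mice, where 7 members were lower. These correlations run over the same 8 arrays on which the members were picked, and were the highest of 22180 genes. A gene that separates the 2 groups ranks high by that choice, so they are a description only.

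Cell type markers moved with the groups in part. All 3 measured B cell markers (Ms4a1, Cd79a and Pax5) had lower means in Hh activation mice, with differences of -0.93, -0.91 and -0.61 on the log2 scale and overlap. Their mean level lay between 4.59 and 5.71 in Hh activation mice and between 5.20 and 6.60 in controls. All 4 smooth muscle markers had higher means, with a mean level between 12.16 and 12.28 in Hh activation mice and between 11.86 and 12.07 in controls. Of these 4, Actg2, Cnn1 and Des lay above every control. So did S100b of the enteric glia and neuron list (difference 0.68, 1 of 2 measured) and Lep of the adipocyte list (0.58, 1 of 3). All 6 epithelial markers had higher means by 0.03 to 0.27, each with overlap. Fibroblast markers differed by -0.01 to 0.24 and macrophage markers by -0.13 to -0.08, each with overlap. No marker of the skeletal muscle, squamous epithelium or liver lists was apart from the controls. None of these markers was called by limma. At an unadjusted p under 0.05 there were 2 B cell, 2 smooth muscle, 1 epithelial, 1 glia and neuron and 1 adipocyte marker. These counts are a description too, without the share of all genes beside them. In the contrast of the 2 kinds of control (2 mice each) the B cell markers were higher in Ptch1fl/+ than in R26-tdTomato controls, by 0.59 to 0.64. Their adjusted p was 0.998 (limma). Of the 3 adipocyte markers, Plin1 and Adipoq were higher in Ptch1fl/+ by 1.01 and 0.645, and Lep differed by -0.105. The part of cell makeup in the zinc finger differences was not tested.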

How the data were processed

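Gene expression in whole colon was measured in 8 mice on Affymetrix Mouse Gene ST 2.0 arrays. The deposited log2 values had been normalized by the authors with RMA. Neither the software version nor the annotation used for RMA is stated in the sources at hand. RMA puts the probes of all arrays on a common scale. Of 41345 transcript clusters, 23521 had 1 gene symbol in the platform table, 1820 had several and 16004 none. Symbols were updated by gene ID through RefSeq (23328 matched), and the brightest of a gene's clusters was kept (22180 genes, 1082 of which had more than 1 cluster).

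Groups, sex and alleles were taken from the sample labels. Differences came from linear models in limma 3.58.1 (R 4.3.3; lmFit, then eBayes). P values were adjusted by Benjamini-Hochberg over all genes at a threshold of 0.05, and the fit was checked on simulated data. The 3 genotypes shared 1 spread for the contrast of the controls, sex was added as a term, and the reporter was compared with 4 classes of 2 mice. Each replicate is its own mouse, and so few arrays limit the precision. A zinc finger symbol starts with Zfp and a digit, Zkscan, Zscan or Rsl.

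The members, lists and tests were chosen with earlier results of these data known. Named genes are the members, Ptch1, zinc finger symbols within 50 measured genes of Ptch1 with no overlap between groups, the most alike genes, and up to 4 genes of each list. Zfp738, Zfp273, Zfp457, Zfp748, Zfp456, Zfp729b, Zfp85os, 9430065F17Rik and the 5 neighbours without a zinc finger symbol were named after their values were seen. The promoter run was too. Alternatives were the mean of clusters, quantile normalization, median centring, dim genes left out (below percentile 40), array weights, a variance model with trend and robust fit, sex in the model, females only, the replicate number as a block, other classes or controls, and each mouse left out.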

Additional observations from a re-analysis of the deposited data

Results flagged for a closer look

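Rsl1 in the controls had 1 value far from the others: R26-tdTomato replicate 4 was at 6.54, against 5.94 to 6.04 in the other 3 controls. Of 18 sets of 4 mice examined (the 8 zinc finger genes and Ptch1 in each group), this was the only one with such a gap. Chance gives such a gap in about 1 in 20 sets.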

How the results depend on the processing

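Under the alternatives run, the 7 lower members kept a negative and Zfp935 a positive Hh activation minus control difference, except that Zfp429 had no value with dim genes left out. The median ranged from -0.71 to -0.56, and 6 members were below every control after quantile normalization or median centring, against 7 otherwise. With mice or a kind of control left out, this count could not fall below 7. In Ptch1fl/+ minus R26-tdTomato controls limma called 0 genes, or 0 to 2 when 1 mouse was left out (2 without Ptch1fl/+ replicate 1). Reporter calls ranged from 0 to 56 in that way. The 9 sex calls became 20 under median centring or a trended variance, 1 without dim genes, and 4 to 119 when 1 mouse was left out (119 without either Ptch1fl/+ mouse, 4 without either R26-tdTomato mouse, 5 without Hh activation replicate 2).

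Equal replicate numbers do not pair these mice (correlations of same-numbered deviations from -0.05 to 0.03). With the replicate block the Ptch1fl/+ minus R26-tdTomato difference turned to 0.055 for Rsl1, -0.045 for Zfp458, -0.15 for Zfp712 and 0.13 for Zfp935, and no call changed. With 1 mouse left out it ranged from -0.565 to -0.065 for Rsl1, -0.52 to -0.17 for Zfp493, -0.13 to 0.52 for Zfp458, -0.37 to 0.42 for Zfp712, -0.405 to 0.105 for Zfp874a, -0.21 to 0.20 for Zfp935 and -0.07 to 0.22 for Ptch1. With sex in the model it was 0.421 for Zfp458, -0.079 for Zfp493 and -0.022 for Zfp874a, and turned to 0.066 for Zfp935, and in females alone it turned to 0.20 for Zfp935 and -0.07 for Ptch1. The cause of these turns was not tested. Each member had 1 cluster, so a test of other clusters gave no value.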
